A study of Mus musculus with 9 samples.

Results

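The 10 genes described here, Stab1, Stab2, Clec4g, Ptprb, Pecam1, Kdr, Lyve1, Flt1, Tek and Bmp2, are markers of the endothelial cells that line the liver sinusoids. They were selected by name, as the gene entries of the deposited expression table that carry one of these symbols and a known transcript, which gave 10 of the 26345 named entries with known transcripts. The table held 22 rows under these names, and the other 12 rows (11 for Flt1 and 1 for Pecam1) consisted only of transcripts assembled from the reads. None of the 10 entries held transcripts of another protein-coding gene.

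Whole liver RNA was sequenced from mice labelled as 8 weeks of age after 5 weeks of feeding. The pair-fed (PF) group received an isocaloric control liquid diet, the alcohol-fed (AF) group received the Lieber-DeCarli diet, and the third group (AF with MNA) received the Lieber-DeCarli diet together with intraperitoneal injections of MNA at 50 mg/kg, an agent that the labels do not spell out. Each group had 3 libraries, and mice of the PF and AF groups were male according to the methods and had fasted before tissue was taken. The labels name the strain as C57BL/6 for PF and AF and as C57BL/7, C57BL/8 and C57BL/9 for the 3 AF with MNA libraries. The running numbers may be an error of entry, and if the strains did differ, strain and injection cannot be told apart. No label states that each library came from its own animal, and the p-values measure the spread between these libraries.

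Sinusoidal endothelial cells form a fenestrated lining without a continuous basement membrane and clear waste macromolecules from the blood through scavenger receptors. Their survival and differentiation depend on vascular endothelial growth factor (VEGF) and angiopoietin signals received by receptor tyrosine kinases. They also release angiocrine factors, among them the bone morphogenetic protein (BMP) ligands through which hepatocytes are stimulated to make hepcidin, the hormone that limits iron uptake.

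Levels are given as FPKM (sequenced fragments scaled to the length of the transcripts and to the library's mapped fragments), so that levels of different genes can be compared. Total reads ranged from 57800660 to 82179248 per library. The summed FPKM of 13645 assembled transcripts inside introns was 9433 in AF replicate 3 and 8934 in AF with MNA replicate 1, against 2477 to 4937 in the other 7 libraries, and the summaries of each comparison are also given without these libraries. Alb, the hepatocyte gene for serum albumin, lay between 10882 and 17386 FPKM in the 9 libraries. All 10 endothelial genes were measured above 0 in every library, from 0.78 FPKM for Flt1 to 13.67 FPKM for Clec4g, and all 10 passed the minimum mean of 0.5 FPKM in each comparison.

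Promoter sequences of Stab1, Stab2, Clec4g, Kdr, Flt1 and Tek were found in the RefSeq promoter table (build GRCm38.p6), which held no entry matched to Ptprb, Pecam1, Lyve1 or Bmp2. Shown are the 250 bases before the start of the 4 matched genes whose AF with MNA libraries all lay above the PF libraries, each read 5′ to 3′ on the strand of its gene. Stab1 is at chr14:31168642-31168891 (minus strand), Clec4g at chr8:3720652-3720901 (minus strand), Kdr at chr5:75978456-75978705 (minus strand) and Tek at chr4:94739039-94739288 (plus strand). Capitals mark GGAAG or its reverse complement CTTCC, a core recognised by the ETS family of factors active in endothelial cells.
Stab1: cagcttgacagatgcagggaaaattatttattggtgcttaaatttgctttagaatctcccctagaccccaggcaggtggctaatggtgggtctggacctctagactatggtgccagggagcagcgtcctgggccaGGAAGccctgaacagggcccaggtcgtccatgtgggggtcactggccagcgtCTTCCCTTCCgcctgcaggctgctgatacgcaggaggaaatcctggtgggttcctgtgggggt
Clec4g: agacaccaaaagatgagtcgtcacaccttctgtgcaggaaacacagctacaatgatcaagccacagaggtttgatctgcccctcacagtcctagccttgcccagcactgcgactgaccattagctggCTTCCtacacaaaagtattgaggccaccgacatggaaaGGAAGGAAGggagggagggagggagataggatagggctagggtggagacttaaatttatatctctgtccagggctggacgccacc
Kdr: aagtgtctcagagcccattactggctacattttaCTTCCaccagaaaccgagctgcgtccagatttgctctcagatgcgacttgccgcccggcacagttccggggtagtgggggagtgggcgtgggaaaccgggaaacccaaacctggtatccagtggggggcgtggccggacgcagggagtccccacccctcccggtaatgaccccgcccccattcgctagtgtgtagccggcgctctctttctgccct
Tek: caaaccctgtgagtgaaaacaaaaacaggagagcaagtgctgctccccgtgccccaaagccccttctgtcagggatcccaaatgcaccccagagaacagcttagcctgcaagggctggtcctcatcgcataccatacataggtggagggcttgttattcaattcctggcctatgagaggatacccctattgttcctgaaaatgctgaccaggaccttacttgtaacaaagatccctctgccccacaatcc

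The 5-base core occurred 3 times in the Stab1 sequence, 3 times in Clec4g, once in Kdr and not in Tek. Of the 6 matched genes, 5 held it, and so did 64.1% of the 32851 promoters of this length. The letters AGATAA or TTATCT, which members of the GATA family can bind, were in none of the 6 windows and in 9.99% of all promoters.

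In PF liver the 10 genes fell into 3 ranges. Stab1 (8.44 ± 1.21 FPKM, SD, n = 3), Ptprb (8.33 ± 1.41 FPKM), Clec4g (7.18 ± 0.679 FPKM), Kdr (5.16 ± 1.305 FPKM) and Stab2 (5.01 ± 0.616 FPKM) were the highest, and each overlapped its neighbour in this order. Pecam1 (2.48 ± 0.327 FPKM), Tek (2.04 ± 0.508 FPKM), Lyve1 (1.91 ± 1.09 FPKM) and Bmp2 (1.84 ± 0.123 FPKM) followed, with a gap between Stab2 and Pecam1. Flt1 was the lowest at 0.98 ± 0.250 FPKM, below every value of Bmp2. In AF the ranges of neighbours were apart between Stab2 and Lyve1 and between Tek and Flt1, and in AF with MNA between Kdr and Stab2, Pecam1 and Tek, and Bmp2 and Flt1. The same upper 5 genes and the same lowest gene were found in AF and in AF with MNA, where Clec4g (10.98 ± 0.496 FPKM) and Stab1 (10.8 ± 0.542 FPKM) overlapped at the top and Flt1 stood at 1.27 ± 0.142 FPKM.

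**Figure D1:**
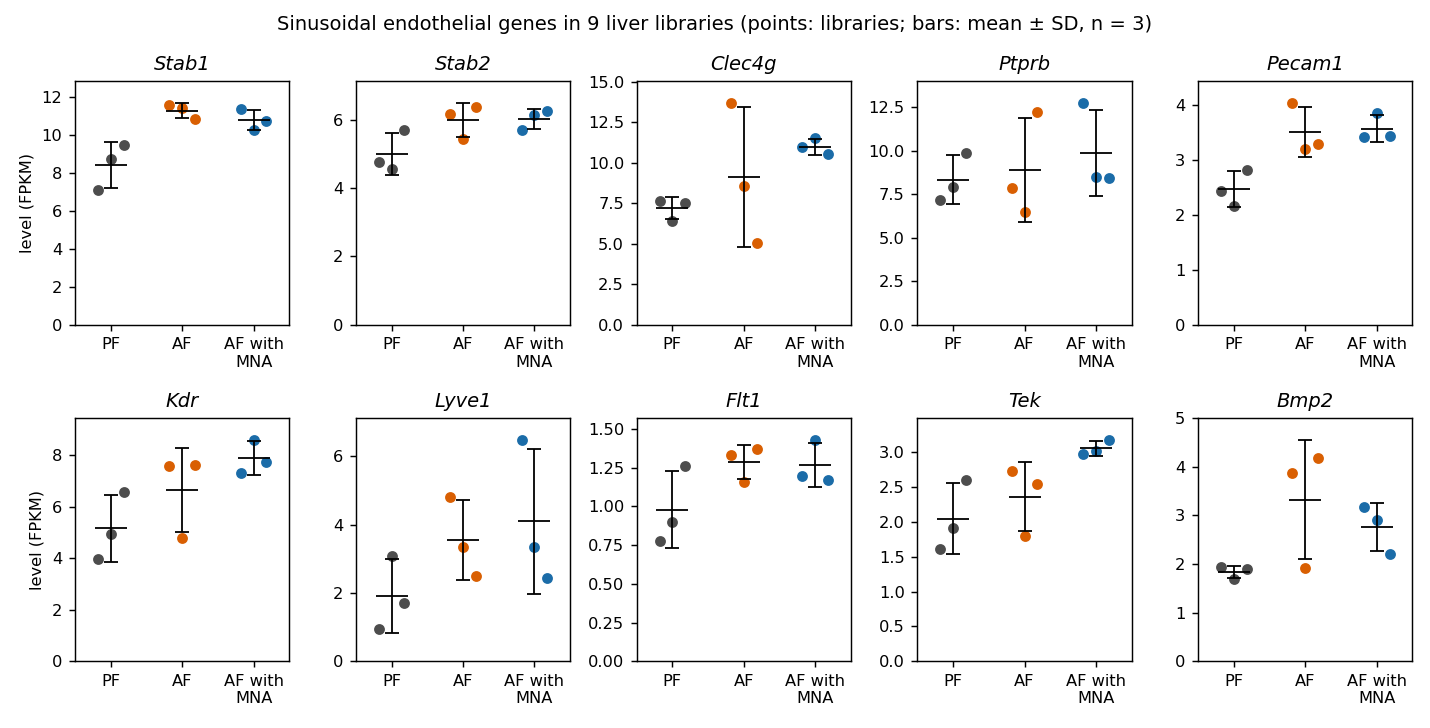
Level in FPKM (y axis, from 0, with a scale of its own in each panel) of the 10 sinusoidal endothelial genes in the PF, AF and AF with MNA groups (x axis), with 1 point per library and bars for the mean ± SD (n = 3). The AF with MNA points lie above all PF points for Stab1, Clec4g, Pecam1, Kdr, Tek and Bmp2, while Clec4g spreads from 5.07 to 13.67 FPKM within AF.

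The question of the first comparison was which of these genes differ in liver after alcohol feeding. Every one of the 10 genes had a higher mean in AF than in PF, by between 1.07 times (Ptprb) and 1.86 times (Lyve1), whereas 46.3% of all 12268 tested genes had a higher mean. The median log2 ratio of the group means was 0.38 for the 10 genes and -0.03 for all tested genes. No gene of the 10 reached an adjusted p under 0.05 (limma with Benjamini-Hochberg adjustment over all tested genes, where 0.326% did), and none passed the threshold of the methods, which asks for a log2 ratio beyond 1 in either direction and an unadjusted p under 0.05 (4.3% of all genes). An unadjusted p under 0.05 was found for Stab1, Pecam1 and Bmp2, all higher in AF, against 5.1% of all genes. Stab1 and Pecam1 had AF libraries that all lay above the PF libraries, a pattern seen in 8.18% of all genes. Leaving out PF replicate 1 lowered the count of 3 to 0, as did leaving out AF replicate 1, and leaving out PF replicate 2 lowered it to 1. Without AF replicate 3 it was 2, with 9 of the 10 means higher and a median log2 ratio of 0.40. The threshold of the methods was passed by 1 gene without PF replicate 2 (Lyve1) and by 1 without AF replicate 2 (Bmp2).

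The question of the second comparison was whether MNA given with alcohol changed these levels from those under alcohol alone. The mean was higher in AF with MNA for 7 genes and lower for Stab1, Flt1 and Bmp2, with a median log2 ratio of 0.09 against 0.01 for all 12214 tested genes, of which 51.2% had a higher mean. None of the 10 had an adjusted p under 0.05 (limma, 0.0491% of all genes), passed the threshold of the methods (1.98%) or had an unadjusted p under 0.05 (5.22%). Tek alone among the 10 had AF with MNA libraries that all lay above the AF libraries, as did 5.53% of all genes. The intervals of the fitted differences were wide for some genes, reaching from -0.67 to 0.90 on the log2(FPKM + 1) scale for Lyve1 and from -0.40 to 1.07 for Clec4g. For Stab2 the interval ran from -0.27 to 0.28 and for Stab1 from -0.32 to 0.20. Without AF replicate 2 the median log2 ratio of the 10 genes was -0.03 and 4 of the 10 means were higher. The median was 0.01 without AF replicate 3 and 0.03 without AF with MNA replicate 1, with 6 means higher and 0 unadjusted calls in either case. An unadjusted p under 0.05 was found for Clec4g when AF replicate 1 was left out (log2 ratio 0.69) and for Bmp2 when AF replicate 2 was left out (log2 ratio -0.54), while the adjusted p were 0.9998 and 0.771 (limma).

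The third comparison set AF with MNA against PF and shares its PF libraries with the first comparison and its AF with MNA libraries with the second. All 10 genes again had a higher mean than in PF, by between 1.19 times (Ptprb) and 2.14 times (Lyve1), against 47.0% of the 12276 tested genes. Their median log2 ratio was 0.55, and that of all tested genes was -0.02. No gene reached an adjusted p under 0.05 (limma, 0.432% of all genes), and none passed the threshold of the methods (3.89%). Stab1, Clec4g, Pecam1, Kdr, Tek and Bmp2 had an unadjusted p under 0.05 and were higher, against 6.52% of all genes, and the same 6 had AF with MNA libraries that all lay above PF, against 9.54% of all genes. Leaving out AF with MNA replicate 2 lowered the count of unadjusted calls to 3, and leaving out AF with MNA replicate 1 lowered it to 4, with all 10 means still higher and a median log2 ratio of 0.52. In a fit of all 9 libraries together the count was also 4, since Clec4g and Bmp2 no longer had an unadjusted p under 0.05. Lyve1 passed the threshold of the methods without PF replicate 2 and without AF with MNA replicate 3. In each of the 3 AF with MNA libraries all 10 genes lay above their PF mean, and in PF replicate 3 itself 9 of the 10 did.

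**Figure D2:**
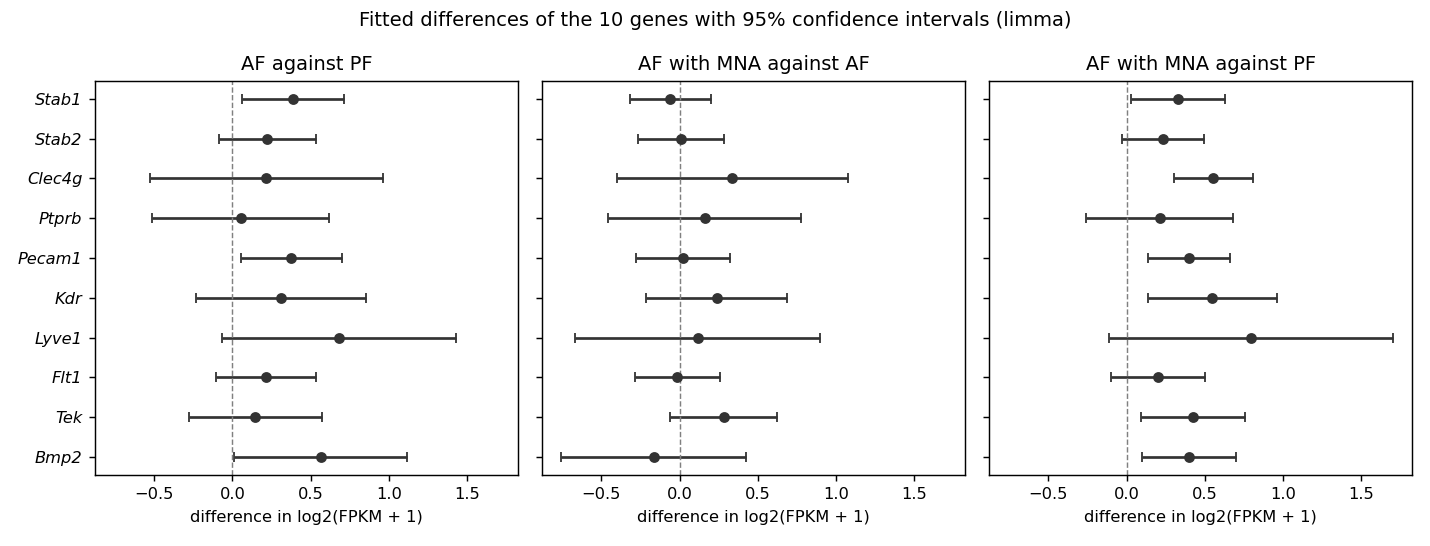
Difference in log2(FPKM + 1) fitted by limma (x axis) for each of the 10 genes (y axis) in the 3 comparisons (panels), as points with 95% confidence intervals. Intervals lie above 0 for Stab1, Pecam1 and Bmp2 in AF against PF and for 6 genes in AF with MNA against PF, and all 10 cross 0 in AF with MNA against AF.

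The scavenger and endocytic receptors were described first. Stab1 encodes stabilin-1, a large receptor that takes up modified proteins and is also made by some macrophages (chr14:31139013-31168641, minus strand, in GRCm38, as for all positions here). Its level was 7.11, 8.72 and 9.49 FPKM in the PF libraries, 11.59, 11.41 and 10.82 FPKM in AF, and 11.36, 10.28 and 10.74 FPKM in AF with MNA. Both alcohol-fed groups thus lay wholly above PF and overlapped each other. The AF mean was 1.34 times that of PF (log2 0.42), with a fitted difference of 0.39 ± 0.14 (SE) and an adjusted p of 0.365 by limma. The exact two-sided permutation test gave p = 0.1, the smallest value that 3 against 3 libraries allow. In AF with MNA the mean was 1.28 times that of PF (adjusted p = 0.319, limma).

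Stab2, which encodes stabilin-2, the main clearance receptor for hyaluronan in liver, is on chromosome 10 (chr10:86841198-87008025, minus strand). The PF libraries had 4.77, 4.55 and 5.71 FPKM, the AF libraries 6.16, 5.45 and 6.39 FPKM, and the AF with MNA libraries 5.71, 6.14 and 6.25 FPKM. PF replicate 3 reached into the range of AF and tied with the lowest AF with MNA library. The mean was 1.20 times that of PF in AF and in AF with MNA (adjusted p = 0.569 and 0.408, limma).

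Clec4g encodes LSECtin, a C-type lectin of sinusoidal endothelium (chr8:3707064-3720651, minus strand). Its values were 7.61, 6.40 and 7.54 FPKM in the PF libraries, 13.67, 8.59 and 5.07 FPKM in the AF libraries, and 10.94, 11.50 and 10.51 FPKM in the AF with MNA libraries. AF held both the highest and the lowest of the 9 values, while the 3 AF with MNA libraries lay within 1 FPKM of each other and above all PF libraries. The coefficient of variation was 47.5% in AF, 9.46% in PF and 4.52% in AF with MNA. AF with MNA was 1.53 times PF, with a fitted difference of 0.55 ± 0.10 (SE) and an adjusted p of 0.121 by limma, the lowest of the 10 genes in the 3 comparisons. When all 9 libraries shared 1 estimate of the spread, the adjusted p was 0.483 (limma) and the unadjusted call was lost. In AF against PF the log2 ratio was 0.34 (adjusted p = 0.832, limma), and it was -0.07 without AF replicate 1 and 0.63 without AF replicate 3. AF replicate 3, the library with the most intron signal, was the one at 5.07 FPKM, and the part of this signal in the Clec4g value was not tested.

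Lyve1 encodes a hyaluronan receptor shared with lymphatic vessels (chr7:110850607-110863239, minus strand). Values were 0.94, 3.09 and 1.71 FPKM in the PF libraries, 4.81, 3.36 and 2.49 FPKM in the AF libraries, and 6.48, 3.35 and 2.45 FPKM in the AF with MNA libraries. Its highest value was 6.89 times its lowest, the widest span of the 10 genes, and PF replicate 2 overlapped both other groups. The ratio to PF was 1.86 in AF (log2 0.89, adjusted p = 0.468, limma) and 2.14 in AF with MNA (log2 1.097, adjusted p = 0.409, limma). Without PF replicate 2 the log2 ratio was 1.42 in AF and 1.63 in AF with MNA, both past the threshold of the methods (adjusted p = 0.402 and 0.375, limma). Without AF with MNA replicate 3 it was 1.36 in AF with MNA against PF (adjusted p = 0.430, limma), also past that threshold. Without AF with MNA replicate 1, at 6.48 FPKM and with the second highest intron signal, the log2 ratio to PF was 0.60 (adjusted p = 0.580, limma). Without PF replicate 1, the lowest library, it was 0.57 in AF and 0.77 in AF with MNA (adjusted p = 0.718 and 0.622, limma).

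The growth factor receptors came next. Kdr encodes VEGF receptor-2, the main signalling receptor for VEGF-A (chr5:75932827-75978458, minus strand). The PF libraries had 3.98, 4.93 and 6.56 FPKM, the AF libraries 7.56, 4.77 and 7.60 FPKM, and the AF with MNA libraries 7.29, 8.59 and 7.75 FPKM. AF replicate 2 lay within the PF range and the other 5 libraries of the alcohol-fed groups lay above it. The ratio to PF was 1.29 in AF (adjusted p = 0.646, limma) and 1.53 in AF with MNA (fitted difference 0.55 ± 0.17 (SE), adjusted p = 0.268, limma).

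Flt1 encodes VEGF receptor-1, which also has a soluble form that binds VEGF-A as a decoy (chr5:147561604-147726011, minus strand). Its levels were 0.78, 0.90 and 1.26 FPKM in the PF libraries, 1.33, 1.16 and 1.37 FPKM in the AF libraries, and 1.20, 1.43 and 1.17 FPKM in the AF with MNA libraries. PF replicates 1 and 2 were below all 6 other values, and PF replicate 3 was within them. The mean was 1.31 times PF in AF (adjusted p = 0.586, limma) and 1.29 times PF in AF with MNA (adjusted p = 0.523, limma).

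Tek encodes TIE2, the receptor for the angiopoietins (chr4:94739289-94874976, plus strand). Values were 1.61, 1.91 and 2.60 FPKM in the PF libraries, 2.73, 1.8 and 2.54 FPKM in the AF libraries, and 2.97, 3.01 and 3.17 FPKM in the AF with MNA libraries. All AF with MNA libraries lay above all 6 others, and PF and AF overlapped. Against AF the ratio was 1.29 (fitted difference 0.28 ± 0.14 (SE), adjusted p = 0.940, limma; exact two-sided permutation p = 0.1). Against PF the ratio was 1.495 (adjusted p = 0.273, limma).

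Ptprb encodes VE-PTP, an endothelial phosphatase that acts on TIE2 and VE-cadherin (chr10:116275523-116389535, plus strand). Its values were 7.16, 7.93 and 9.90 FPKM in the PF libraries, 7.89, 6.51 and 12.24 FPKM in the AF libraries, and 12.74, 8.51 and 8.43 FPKM in the AF with MNA libraries. The 2 highest values were those of AF replicate 3 and AF with MNA replicate 1, the 2 libraries with the most intron signal, whose part in these values was not tested. Groups overlapped in all comparisons, and the log2 ratio of AF to PF of 0.09 (adjusted p = 0.956, limma) became -0.21 without AF replicate 3. Against AF, the log2 ratio of AF with MNA was 0.16, and it was -0.07 without AF with MNA replicate 1 and 0.46 without AF replicate 3.

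Pecam1 encodes CD31, an adhesion molecule at junctions between endothelial cells that is also made by platelets and some leukocytes (chr11:106654217-106750628, minus strand). The level was 2.44, 2.17 and 2.82 FPKM in the PF libraries, 4.04, 3.20 and 3.30 FPKM in the AF libraries, and 3.42, 3.86 and 3.44 FPKM in the AF with MNA libraries. As for Stab1, both alcohol-fed groups lay above PF without overlap and overlapped each other. The ratio to PF was 1.42 in AF (fitted difference 0.38 ± 0.13 (SE), adjusted p = 0.372, limma) and 1.44 in AF with MNA (adjusted p = 0.218, limma).

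Bmp2 encodes a BMP ligand that liver endothelium supplies to hepatocytes (chr2:133552159-133562885, plus strand). Values were 1.93, 1.70 and 1.89 FPKM in the PF libraries, 3.87, 1.92 and 4.18 FPKM in the AF libraries, and 3.17, 2.91 and 2.21 FPKM in the AF with MNA libraries. PF was narrow, with a coefficient of variation of 6.68% against 36.9% in AF, and AF replicate 2 was the 1 alcohol-fed library within the PF range. The ratio of AF to PF was 1.81 (log2 0.85, adjusted p = 0.417, limma). Without AF replicate 2 the log2 ratio was 1.13 (adjusted p = 0.0939, limma), past the threshold of the methods. It was 0.73 without AF replicate 1 and 0.65 without AF replicate 3 (adjusted p = 0.639 and 0.485, limma), and the unadjusted call was lost in both cases and when any 1 of the PF libraries was left out. AF with MNA was 1.502 times PF (adjusted p = 0.271, limma) and 0.831 times AF (adjusted p = 0.988, limma).

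The list of BMP signalling and hepcidin genes held 23 tested genes beside Bmp2. In AF against PF 14 of them had a higher mean and 9 a lower one, with a median log2 ratio of 0.02, against 46.3% higher and a median of -0.03 over all tested genes. None reached an adjusted p under 0.05 (limma), and 3 of the 23 passed the threshold of the methods, all higher, against 4.3% of all genes in either direction. These were Id1 and Smad7, direct targets of BMP signalling, and Hamp, the gene for hepcidin. The AF and PF libraries of all 3 overlapped. Without overlap, 0 of the 23 genes were higher and 1 was lower, against 1004 and 1243 of 12268 genes. The lower gene, named after its values were seen, was Acvr1 (log2 -0.67, adjusted p = 0.428, limma). Id1 stood at 1.06, 1.59 and 3.36 FPKM in the PF libraries, 9.71, 2.73 and 5.38 FPKM in the AF libraries, and 3.51, 9.72 and 3.51 FPKM in the AF with MNA libraries (AF against PF log2 ratio 1.57, adjusted p = 0.390, limma). Smad7 stood at 1.29, 2.02 and 2.17 FPKM in the PF libraries, 6.11, 1.96 and 4.73 FPKM in the AF libraries, and 4.66, 4.75 and 3.06 FPKM in the AF with MNA libraries (log2 ratio 1.22, adjusted p = 0.415, limma). Within AF, replicate 2 had the lowest value of Bmp2, Id1 and Smad7.

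Hamp stood at 342, 174 and 667 FPKM in the PF libraries, 976, 842 and 610 FPKM in the AF libraries, and 957, 661 and 501 FPKM in the AF with MNA libraries (AF against PF log2 ratio 1.04, adjusted p = 0.404, limma), and its entry also holds transcripts of the near-identical Hamp2, so that the 2 genes cannot be told apart. In AF with MNA against AF, 9 of the 23 had a higher mean, the median log2 ratio was -0.04 and none had an unadjusted p under 0.05 (limma). Tfr2, an iron sensor of hepatocytes and the second most abundant gene of the list, had a log2 ratio of 0.01 in AF against PF and -0.07 in AF with MNA against AF.

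**Figure D3:**
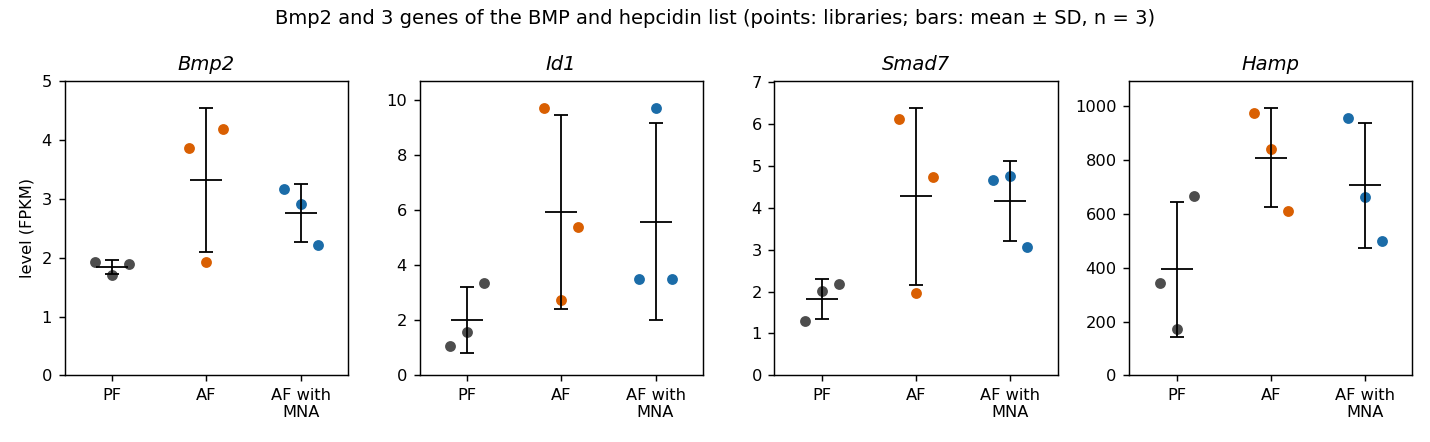
Level in FPKM (y axis, from 0, with its own scale per panel) of Bmp2, Id1, Smad7 and Hamp by group (x axis), with 1 point per library and bars for the mean ± SD (n = 3). AF replicate 2 is the low AF point for Bmp2 (1.92 FPKM), Id1 (2.73 FPKM) and Smad7 (1.96 FPKM), and in Hamp it is the middle AF point (842 FPKM).

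Ligands and co-receptors of the VEGF and angiopoietin families showed no common direction, with 5 of 9 tested genes higher in AF than in PF. Vegfd, which encodes a ligand of VEGF receptor-3, had a log2 ratio of 1.67 (adjusted p = 0.106, limma), but its PF mean of 0.373 FPKM lay under the minimum and it was tested only through its AF level, so that a difference was built into its selection. The PF libraries had 0.37, 0.36 and 0.39 FPKM of it and the AF libraries 1.31, 1.27 and 0.98 FPKM. The means of Angptl6 differed the other way (log2 -0.67, adjusted p = 0.390, limma). Nrp2, a VEGF co-receptor, had the highest ratio of the list in AF with MNA against AF (log2 0.60, adjusted p = 0.940, limma). Angptl4, which encodes a secreted lipase inhibitor, had a log2 ratio of 0.44 in AF against PF (adjusted p = 0.473, limma).

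Other endothelial genes were summarised in the same way, and none reached an adjusted p under 0.05 in any comparison (limma). All 11 tested pan-endothelial genes had a higher mean in AF than in PF, against 46.3% of all genes, with a median log2 ratio of 0.43, and 3 of them had an unadjusted p under 0.05 and were higher, against 5.1% of all genes. These were Cd93 (log2 0.90), the nitric oxide synthase gene Nos3 (log2 0.60) and the VE-cadherin gene Cdh5 (log2 0.59), with adjusted p of 0.275, 0.354 and 0.399 from limma. Eng, a co-receptor for BMP ligands, had a log2 ratio of 0.43 (adjusted p = 0.460, limma). In AF with MNA against AF the pan-endothelial median was 0.00, with 5 means higher and 5 lower. Cd93 and Nos3 were lower (log2 -0.79 and -0.51, adjusted p = 0.940 each, limma). They were the list's 2 unadjusted calls, against 281 lower and 356 higher calls among 12214 genes. Named after their values were seen, Erg (log2 0.88, adjusted p = 0.940, limma) and Adgrl4 (log2 0.30, adjusted p = 0.965, limma) had higher means, Adgrl4 without overlap. Against PF, 10 of the 11 were higher in AF with MNA, with a median of 0.51.

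Of 13 other genes of sinusoidal endothelium, 7 had a higher mean in AF than in PF and 6 a lower one (median log2 ratio 0.31). All 12 tested genes of this list had a higher mean in AF with MNA than in PF, against 47.0% of all genes, with a median log2 ratio of 0.31. An unadjusted p under 0.05 (limma) with a higher level was found for 2 of the 12, against 6.52% of all genes. Wnt2 and Wnt9b, ligands by which central vein and sinusoidal endothelium maintains pericentral hepatocytes, had log2 ratios of 0.81 and 1.44 in AF against PF (adjusted p = 0.313 and 0.359, limma). The Wnt9b libraries were at 1.09, 0.74 and 0.51 FPKM in AF and at 0.18, 0.38 and 0.41 FPKM in AF with MNA, without overlap. The log2 ratio of AF with MNA to AF was -1.27 (adjusted p = 0.940, limma), and the group means were 0.323 FPKM in AF with MNA and 0.287 FPKM in PF. Both lay under the minimum of 0.5 FPKM, so that Wnt9b was tested against AF only through its AF level, which builds a difference into both ratios, and it was not tested in AF with MNA against PF. F8, the factor VIII gene, was 0.41 higher on the log2 scale in AF with MNA than in AF (adjusted p = 0.940, limma). Dnase1l3 had a log2 ratio of 0.70 in AF against PF (adjusted p = 0.506, limma). Gpr182 was listed at 0.02 FPKM in AF with MNA replicate 2 and between 5.63 and 11.88 FPKM in the other 8 libraries, so that its mean in that group rests on that entry. Of 6 tested genes listed for continuous vessels, 5 had a higher mean in AF (median 0.43) and all 6 in AF with MNA against PF (median 0.58), led in AF by Ly6a (log2 1.56, adjusted p = 0.124, limma), which leukocytes also express. Plvap, the most abundant gene of this list, marks the diaphragms of fenestrae and caveolae, so that the list is not particular to continuous vessels. Its log2 ratio was -0.02 in AF against PF and 0.49 in AF with MNA against AF (adjusted p = 0.940, limma).

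Marker lists of other liver cells were given beside these results, since whole liver RNA mixes all cell types. The summed level of the 10 endothelial genes was 38.3 to 49.5 FPKM in PF, 48.2 to 63.7 FPKM in AF and 56.1 to 65.3 FPKM in AF with MNA. The 11 Kupffer cell and macrophage genes summed to 89.6 to 131.8 FPKM in PF, 89.0 to 178.3 FPKM in AF and 117.1 to 150.4 FPKM in AF with MNA, with 6 of 11 higher in AF and a median log2 ratio of 0.05. The 12 stellate cell genes summed to 41.6 to 44.5 FPKM in PF, 36.2 to 53.1 FPKM in AF and 39.8 to 54.6 FPKM in AF with MNA, with 7 of 12 higher and a median of 0.14. Of 10 hepatocyte genes 5 were higher and 5 lower, with a median of 0.09 and sums of 18188 to 22986 FPKM in PF and 17110 to 24000 FPKM in AF. In AF with MNA against PF the medians of the Kupffer cell, stellate cell and hepatocyte lists were 0.11, 0.07 and 0.06, and against AF they were 0.15, -0.10 and 0.02. No gene of these lists was at 0 in every library, and none reached an adjusted p under 0.05 (limma). Single genes of these lists did have an unadjusted p under 0.05 in AF against PF. In the Kupffer cell list this was Marco, a scavenger receptor of macrophages, at 1.05, 0.8 and 0.56 FPKM in the PF libraries, 1.86, 2.77 and 1.1 FPKM in the AF libraries, and 1.56, 2.82 and 2.8 FPKM in the AF with MNA libraries. Both alcohol-fed groups of Marco lay above PF without overlap, past the threshold of the methods (log2 1.25 and 1.57, adjusted p = 0.365 and 0.152, limma). In the stellate cell list these were the desmin gene Des (log2 0.93), the collagen gene Col1a1 (log2 0.87) and the reelin gene Reln (log2 -0.56), with adjusted p of 0.288, 0.414 and 0.423 from limma, and the AF libraries of Des and Col1a1 lay above PF without overlap. Without overlap, 3 of the 12 stellate cell genes were higher, against 8.18% of all genes, and 1 was lower. The other 2 of these, named after their values were seen, were the collagen genes Col1a2 (log2 0.33, adjusted p = 0.668, limma) and, on the lower side, Col3a1 (log2 -0.42, adjusted p = 0.488, limma), which also lay below PF in AF with MNA (log2 -0.53, adjusted p = 0.311, limma). In the hepatocyte list Tat, which encodes an enzyme of tyrosine breakdown, passed the threshold of the methods with overlapping groups (log2 1.24, adjusted p = 0.393, limma). Without overlap, 2 of the 10 hepatocyte genes were higher, against 8.18% of all genes, and 1 was lower. Named after their values were seen, these were Cps1 (log2 0.48), Ass1 (log2 0.45) and, on the lower side, Trf (log2 -0.22). Their adjusted p were 0.467, 0.460 and 0.668 from limma. No gene of these lists had an unadjusted p under 0.05 in AF with MNA against AF. Of 6 cholangiocyte genes, 2 passed the minimum level and both had a higher mean in AF (median log2 ratio 0.74, Spp1 adjusted p = 0.331, limma). Of 8 lymphocyte genes Ptprc alone passed it, with a log2 ratio of -0.04. In bulk RNA a larger number of endothelial cells and more RNA of these genes per cell cannot be told apart.

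**Figure D4:**
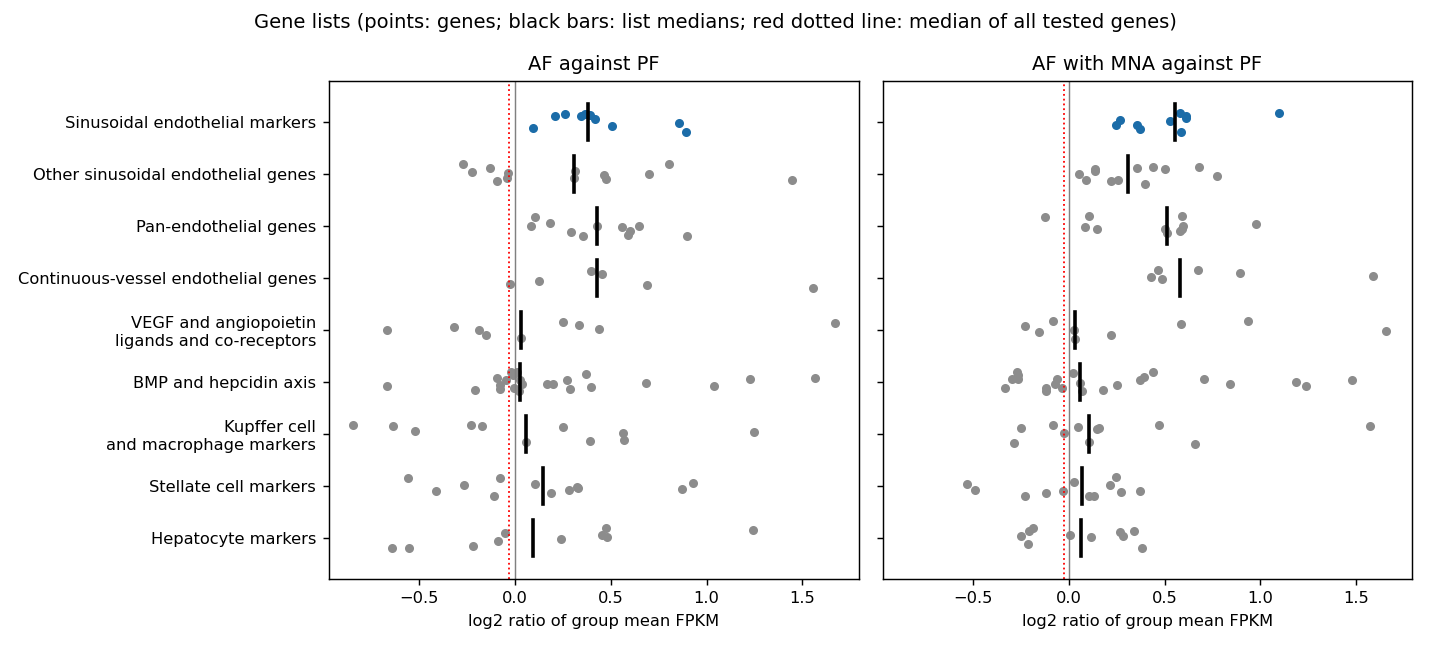
Log2 ratio of group mean FPKM (x axis) for the tested genes of 9 lists (y axis) in AF against PF and in AF with MNA against PF, with 1 point per gene, black bars for list medians and a red dotted line for the median of all tested genes (-0.03 and -0.02). The points of the 10 sinusoidal endothelial genes all lie above 0 in both panels, with medians of 0.38 and 0.55, and the hepatocyte list has medians of 0.09 and 0.06.

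Libraries differed within groups as well. Each gene was divided by its PF mean, and the median over the 10 genes was 0.851, 0.930 and 1.14 in the PF libraries, 1.42, 1.14 and 1.32 in the AF libraries, and 1.43, 1.52 and 1.28 in the AF with MNA libraries. PF replicate 3 and AF replicate 2 were thus alike on this measure. PF replicate 1 was the lowest of the 9 libraries for 5 of the 10 genes and PF replicate 2 for 3. In AF, replicate 2 was the lowest of its group for 7 genes (Stab2, Ptprb, Pecam1, Kdr, Flt1, Tek and Bmp2). In the same library the Kupffer cell list had its highest median relative level of the 9 libraries, 1.53, and the pan-endothelial list was at 1.03, the lowest of the 6 alcohol-fed libraries. Without AF replicate 2 the median log2 ratio of AF to PF over the 10 genes was 0.44, and it lay between 0.28 and 0.54 as each of the 6 libraries was left out in turn.

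**Figure D5:**
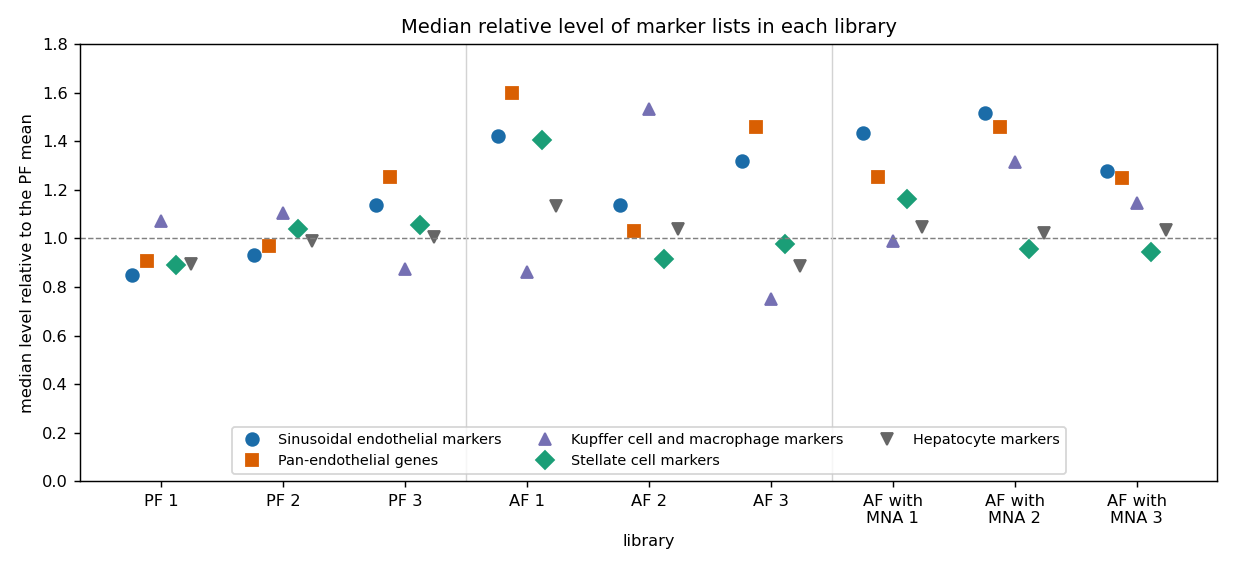
Median over the genes of a list of the level divided by the gene's PF mean (y axis, from 0) in each of the 9 libraries (x axis), for sinusoidal endothelial, pan-endothelial, Kupffer cell, stellate cell and hepatocyte genes. The sinusoidal endothelial medians rank from 0.851 in PF replicate 1 to 1.52 in AF with MNA replicate 2, and the hepatocyte medians stay between 0.885 and 1.13.

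The genes whose profile over the 9 libraries was most like the mean profile of the 10 were searched among 10031 protein-coding genes, by root mean square distance between standardised log2(FPKM + 1) values. Among the 5 nearest were Mfsd3 (distance 0.274, in an entry that also holds Gpt and Ppp1r16a), Dpys (0.299), Cadm1 (0.303) and Ddah1 (0.316), against a median distance of 1.19 over all genes. Dpys stood at 18.1, 21.1 and 24.8 FPKM in the PF libraries, 34.5, 22.3 and 34.1 FPKM in the AF libraries, and 36.5, 30.2 and 31.3 FPKM in the AF with MNA libraries. Among the 10 genes Kdr (0.373) and Pecam1 (0.403) lay nearest to the mean profile they contribute to, and Clec4g (0.829) and Ptprb (0.832) lay farthest from it. Among all genes together, Kdr ranked 17 and Pecam1 21 by this distance, Lyve1 518, Clec4g 1192 and Ptprb 1226. Many other genes thus lay nearer to the mean profile than some of the 10 did.

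At the same loci the lncRNA table placed 16 transcripts inside or opposite 5 of the genes (8 at Flt1, 3 each at Stab2 and Clec4g, and 1 each at Pecam1 and Ptprb). Of these, 12 had a single exon, were on the strand of the gene and lay wholly within its introns in GENCODE M21, and the other 4 were known spliced transcripts on the opposite strand. Only 3 of the 16 were above 0 in more than 4 libraries. The 8 at Flt1, all intronic, summed to 0.698, 0.961 and 1.34 FPKM in the PF libraries, 2.54, 4.93 and 0.407 FPKM in the AF libraries, and 5.21, 0.108 and 0 FPKM in the AF with MNA libraries, which is above the level of Flt1 itself in PF replicates 2 and 3, AF replicates 1 and 2 and AF with MNA replicate 1. The intronic transcript at Pecam1 was at 2.49 FPKM in AF replicate 3, below Pecam1 itself, and at 0.429 FPKM or less elsewhere. Gm16268, antisense to the 3′ part of Stab2, was detected in all 9 libraries, at 1.33, 0.639 and 1.28 FPKM in the PF libraries, 0.687, 0.836 and 1.82 FPKM in the AF libraries, and 0.802, 1.21 and 1.09 FPKM in the AF with MNA libraries, and its groups overlapped. Gm16553, antisense to Clec4g, lay between 0.034 and 0.356 FPKM in the 9 libraries. The 2 intronic transcripts at Clec4g had 1.75 and 1.29 FPKM in AF replicate 3, the library in which Clec4g itself was lowest, and at most 0.0949 FPKM elsewhere.

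Circular RNAs, counted as reads across back-splice junctions, were found for 4 of the 10 genes. They had 8 of the 17959 junction reads in the table, 5 of them from a 3-exon circle of Stab1 (chr14:31160216-31160891, minus strand) in AF replicate 3 alone, and 1 each from Stab2 (an intronic circle), Pecam1 and Ptprb. At this depth no difference between groups was detectable for circular forms of these genes.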

How the data were processed

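Liver RNA depleted of ribosomal RNA was sequenced from both ends with strand kept (RIN above 7). The deposited FPKM values of gene entries and lncRNA transcripts were made by the authors with StringTie 1.3.4 after trimming with cutadapt 1.9, with 2 decimals kept in the gene table. The submitters' processing notes also name FastQC, HISAT2, TopHat and edgeR without giving their roles, and the genome build is not given in the sources used here. Known lncRNA transcripts matched GENCODE M21 (GRCm38) by identifier in 7841 of 7879 cases, 7708 with the same ends, and coordinates of genes and promoters are those of GRCm38. FPKM corrects for length and depth but carries no count, so that read-level precision of these genes is unknown and the number of libraries limits the precision. The deposited circRNA count values are junction reads, and the authors' normalized signal is that count divided by a constant per library, from which total reads were recovered. Intervals for counting error are not given.

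Samples were grouped by their labels, and 0 per-sample columns of the gene table were left unmapped. Named entries with a known transcript were tested on log2(FPKM + 1) where the mean of the 6 libraries was 0.5 FPKM or more, with limma 3.58.1 (lmFit, eBayes with an intensity trend, two-sided, Benjamini-Hochberg over all tested genes), as FPKM are not counts. Log2 ratios are those of group mean FPKM, while fitted differences are on the log2(FPKM + 1) scale, which understates the change of low genes. Exact permutation tests compared group means. The fit was tested on simulated data. Alternatives were a pseudocount of 0.1, libraries scaled to one median, minimum levels of any value above 0 and of 2 FPKM, no trend, all 9 libraries, a replicate block, limma's coefficient as the fold, and each library left out. R 4.3.3, Python 3.11.15, pandas 2.3.3, numpy 2.4.6, scipy 1.17.1 and matplotlib 3.10.9 were used.

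The 10 genes, the other lists and the tests were chosen with earlier results of these data known. From each other list the 2 tested genes with the highest mean FPKM and up to 4 with the largest log2 ratio among those with an unadjusted p under 0.05 in AF against PF or AF with MNA against AF were eligible to be named. Some genes that met a naming rule are not reported here. Of the listed genes, Clec1b, Plxnc1, Egfl7, Ramp2, Hamp2 and Cd68 had no entry under their own name, since their transcripts sat in entries named for other genes, and were left out. Assembled-only rows of Flt1 and Pecam1 were not added to these genes.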

Additional observations from a re-analysis of the deposited data

How the results depend on the processing

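No endothelial gene reached an adjusted p under 0.05 under any alternative run (limma), the lowest being 0.0939 for Bmp2 in AF against PF and 0.0964 for Clec4g in AF with MNA against PF, while the highest for these were 0.643 and 0.483. Of 417 recomputed log2 ratios of single genes, 399 kept their sign. The pseudocount, the minimum levels, the trend, the fit of all 9 libraries and the block cannot change a ratio of group means. Under those settings the sign was therefore kept by construction. The 18 changes of sign came from leaving 1 library out or from scaling the libraries. No gene crossed an adjusted p of 0.05 in any run (limma), but unadjusted calls were gained and lost, as the counts show. Over all alternatives the median log2 ratio of the 10 genes lay between 0.27 and 0.54 in AF against PF and between 0.40 and 0.62 in AF with MNA against PF. With 1 library left out, the count past the threshold of the methods ranged from 0 to 1 in AF against PF and from 0 to 1 in AF with MNA against PF. The count with an unadjusted p under 0.05 ranged from 0 to 2 in AF against PF, from 0 to 1 in AF with MNA against AF and from 3 to 8 in AF with MNA against PF. In AF with MNA against AF, between 4 and 8 means were higher, and the median log2 ratio lay between -0.032 and 0.15.

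Log2 ratios that changed sign when 1 library was left out ranged, in AF against PF, from -0.073 to 0.63 for Clec4g and from -0.21 to 0.27 for Ptprb. In AF with MNA against AF they ranged from -0.057 to 0.056 for Stab2, from -0.019 to 0.69 for Clec4g, from -0.068 to 0.46 for Ptprb, from -0.039 to 0.14 for Pecam1, from -0.29 to 0.48 for Lyve1 and from -0.12 to 0.031 for Flt1. Stab2 also changed sign with libraries scaled to the same median, at -0.0012. The cause was not tested. Flt1 was not tested with the minimum of 2 FPKM.

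Whether equally numbered libraries were paired could not be settled from the values. The deviations from the group means correlated between -0.08 and 0.06 for equal replicate numbers and between -0.12 and 0.10 for unequal ones. With 3 libraries a group these deviations cancel within the group, which limits what such correlations can show. With the replicate number as a block, the endothelial counts with an unadjusted p under 0.05 were 2 in AF against PF, 0 in AF with MNA against AF and 5 in AF with MNA against PF, with 0 at an adjusted p under 0.05, while over all genes adjusted calls went from 40 to 18, from 6 to 1 and from 53 to 0.

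The gene table holds no counts, so that precision rests on the spread of 3 libraries a group. Levels come from whole liver, so that cell number and RNA per cell are not separated, and the strain labels as given differ between AF with MNA and the other groups.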
